A study of Mus musculus with 8 samples.

Results

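The 37 genes described here are transcripts that hepatocytes make in quantity at rest, and they were followed through 8 RNA libraries of cells that are not hepatocytes. The members are a list of symbols drawn up with earlier results of these libraries known, and all 37 were found among the 30395 gene identifiers of the files. They fall into 7 role lists: 9 plasma carriers, 6 apolipoproteins and fatty acid binding genes, 5 coagulation genes, 6 genes of nitrogen and amino acid metabolism, 3 genes of gluconeogenesis, 5 cytochromes P450 and 3 bile acid and anion transporters. The question set for them was whether they scale together, as RNA from 1 source carried over into a sort at different doses would.

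The libraries came from livers of 8-week-old mice on a mixed C57BL/6 and SWR/J background, all with the genotype Gli1:CreER+/-; Ai9+/-, in which Cre made in cells that use the Gli1 gene can turn on a red reporter. Gli1+ peribiliary mesenchymal cells and stellate cells were each taken on day 5 after bile duct ligation (BDL), in which the duct is tied and bile flow stops, and from uninjured mice, with 2 libraries per group. Cells were freed with pronase and collagenase, separated on a gradient and sorted, and SMART-Seq2, which amplifies full-length cDNA by PCR, was used for the libraries. Whether the 2 libraries of a group are separate animals is not stated in the labels, so the p-values cover the spread among these libraries only, which may be technical. No source used here gives the agent that activates CreER, the sort gates or any surgery of the controls.

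Hepatocytes secrete most plasma proteins, among them albumin, apolipoproteins and clotting factors, and they hold the urea cycle, gluconeogenesis and much of the body's drug metabolism. These tasks are unevenly spread along the liver lobule: urea synthesis and gluconeogenesis are strongest near the portal vein, while Cyp2e1 and Cyp1a2 mark hepatocytes near the central vein. Stellate cells lie beside hepatocytes in the sinusoids, and peribiliary mesenchymal cells surround the bile ducts. In sorted bulk RNA, fewer cells of a type and less RNA per cell cannot be told apart.

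Many of these genes are read from compact promoters that bind liver transcription factors such as HNF1, HNF4 and C/EBP. Windows of 300 bases, from 250 before to 50 after the RefSeq start on GRCm38.p6, were at hand for 30 of the 37 members. Those of 4 members are shown because their transcripts follow different courses in the libraries: Alb, to which the others are set, Ahsg, which stayed nearest to it, and Fabp1 and Ambp, which moved furthest from it. The windows are chr5:90460620-90460919 on the plus strand for Alb, chr16:22891765-22892064 on the plus strand for Ahsg, chr6:71199629-71199928 on the plus strand for Fabp1 and chr4:63154123-63154422 on the minus strand for Ambp. Sequences run 5′ to 3′ along the gene, and capitals mark GTTAAT, the half-site of HNF1, and TATAAA, the TATA box.
Alb: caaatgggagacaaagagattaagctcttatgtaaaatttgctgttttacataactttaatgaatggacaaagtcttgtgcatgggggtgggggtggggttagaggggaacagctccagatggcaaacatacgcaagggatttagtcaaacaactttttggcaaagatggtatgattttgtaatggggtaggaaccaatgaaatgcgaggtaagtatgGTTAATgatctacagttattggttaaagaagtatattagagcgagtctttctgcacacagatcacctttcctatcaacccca
Ahsg: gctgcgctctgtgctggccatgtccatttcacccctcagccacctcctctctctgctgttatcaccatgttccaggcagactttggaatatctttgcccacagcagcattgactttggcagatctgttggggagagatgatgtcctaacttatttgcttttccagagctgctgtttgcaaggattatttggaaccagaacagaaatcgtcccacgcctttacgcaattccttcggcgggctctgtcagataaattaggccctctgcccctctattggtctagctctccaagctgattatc
Fabp1: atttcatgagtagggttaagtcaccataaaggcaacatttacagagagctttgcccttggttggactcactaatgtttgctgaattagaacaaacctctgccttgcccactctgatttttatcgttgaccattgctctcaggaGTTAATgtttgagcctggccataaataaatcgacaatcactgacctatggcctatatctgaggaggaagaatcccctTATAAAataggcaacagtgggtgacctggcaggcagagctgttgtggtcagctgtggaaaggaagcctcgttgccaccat
Ambp: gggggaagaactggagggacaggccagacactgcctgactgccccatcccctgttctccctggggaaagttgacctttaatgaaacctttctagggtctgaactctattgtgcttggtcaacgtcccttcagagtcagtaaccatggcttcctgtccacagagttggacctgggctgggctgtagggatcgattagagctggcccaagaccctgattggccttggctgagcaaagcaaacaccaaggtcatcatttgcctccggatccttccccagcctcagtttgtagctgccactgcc
GTTAAT was searched on both strands and stands 32 bases before the start of Alb and 107 before that of Fabp1, and TATAAA stands 30 bases before the start of Fabp1. Neither overlaps the other, and neither was found in the windows of Ahsg and Ambp. GTTAAT was found in 10 of the 30 member windows, or 33.3%, against 7.10% of all 32851 promoter windows. TATAAA was found in 11 of the 30, or 36.7%, against 13.6% of all windows. The HNF4 element CAAAGTCCA was found in 1 member window, that of Cyp3a11, and in 0.475% of all, and a direct repeat of AGGTCA with 1 base between in none of the 30 and in 0.0396% of all. These matches describe the letters of the windows and were not tied to any level in the libraries.

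Summed over the 37 genes, hepatocyte transcripts were more abundant after BDL in both populations. They took 6284 and 31537 CPM (reads scaled to a library total of 1000000) in Gli1+ BDL libraries, against 2722 and 679 CPM in uninjured Gli1+ libraries. In stellate cells they took 3614 and 4056 CPM after BDL, against 1138 and 322 CPM in uninjured libraries. As shares of all reads this was 0.628% and 3.15% in Gli1+ BDL and 0.361% and 0.406% in stellate BDL libraries, against 0.272% and 0.0679% in the Gli1+ and 0.114% and 0.0322% in the stellate libraries of uninjured liver. Each BDL library lay above every uninjured library, and Gli1+ BDL replicate 2 stood far above the other 7. All 37 members had a read in each BDL library, while 34 and 34 had one in uninjured Gli1+ libraries and 34 and 32 in uninjured stellate libraries. Libraries held 11261775 to 19180370 reads, so 3 reads corresponded to 0.156 to 0.266 CPM.

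**Figure D1:**
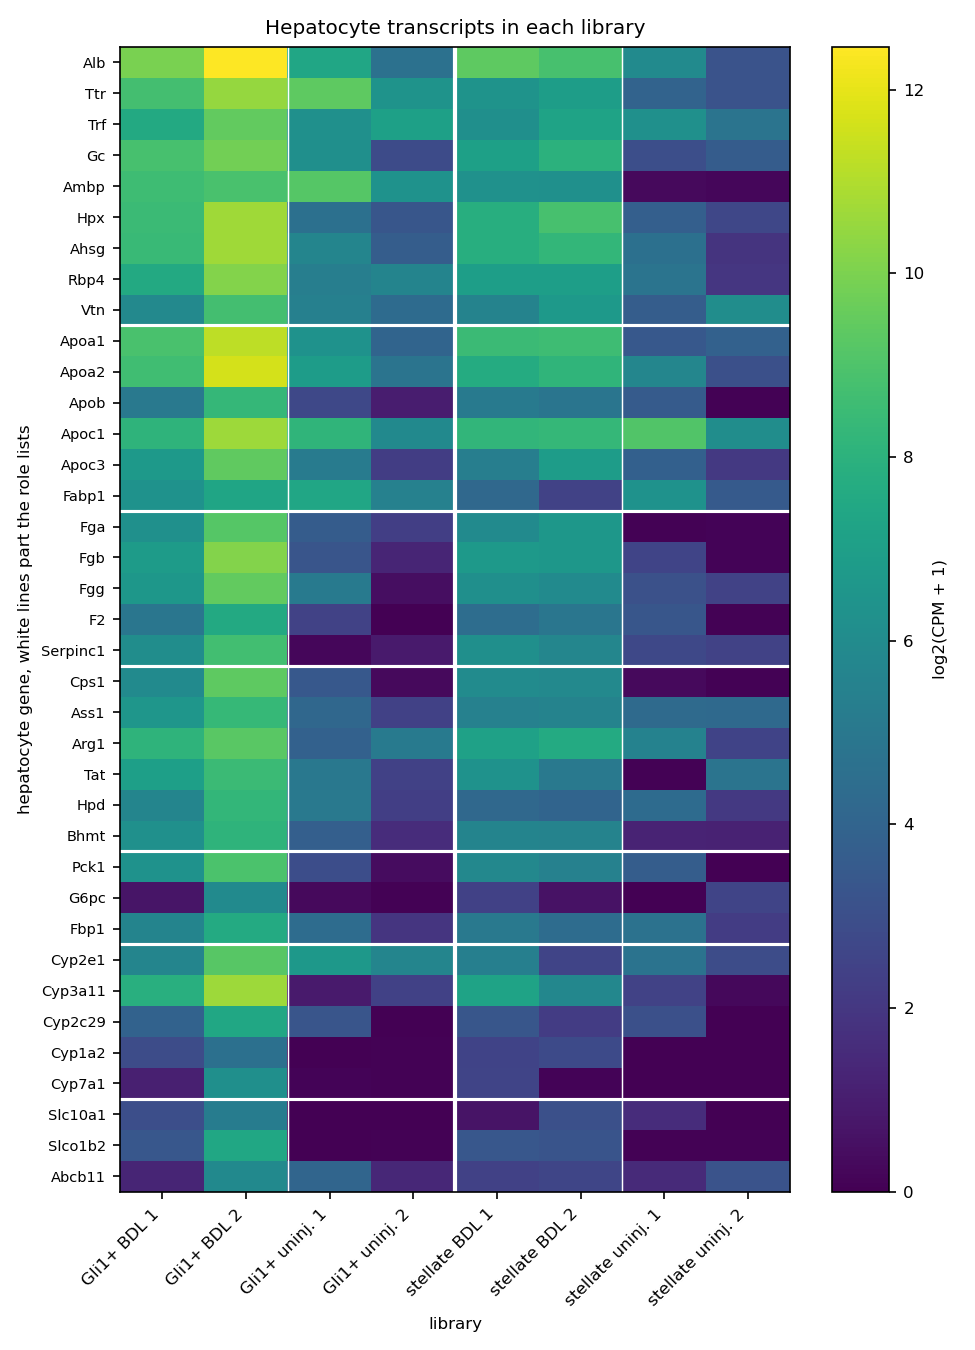
Level of each of the 37 hepatocyte genes (rows, grouped by role list with white lines between lists) in each of the 8 libraries (columns), as log2(CPM + 1). The 4 BDL libraries carry a filled column, with Gli1+ BDL replicate 2 the brightest, while the uninjured libraries are patchy, with single bright genes such as Ttr and Ambp in Gli1+ cells and Apoc1 in stellate cells.

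Other cell types were read in the same libraries. The 8 stellate markers summed to 13235 and 11846 CPM in stellate BDL and 13583 and 19261 CPM in uninjured stellate libraries, against 375 to 593 CPM in the 4 Gli1+ libraries. The 8 portal fibroblast markers summed to 2570 to 8122 CPM in Gli1+ and 24.2 to 111 CPM in stellate libraries, where Gli1 itself was at 0 in 3 of 4. Markers of bile duct cells also moved with BDL: the 8 of them summed to 15114 and 7286 CPM in Gli1+ BDL against 3898 and 3152 CPM in uninjured Gli1+ libraries, and to 181 and 756 CPM in stellate BDL against 6.91 and 3.75 CPM in uninjured stellate libraries. Endothelial markers were also higher in both stellate BDL libraries: the 8 of them summed to 2124 and 1431 CPM, against 520.3 and 101 CPM in uninjured stellate libraries. There 8 of 8 fold changes were above 0, with a median of 2.90 on the log2 scale, against 0.19 for all genes. By limma 0 of 8 were called, against 0.225% of all genes called higher. At an unadjusted p below 0.05 by limma were 7, against 12% of all genes. In Gli1+ cells these markers summed to 499 and 969.8 CPM after BDL, against 795 and 158 CPM in uninjured libraries. Macrophage markers, 10 genes that all had reads in every library, summed to 1925 and 1307 CPM in stellate BDL libraries, against 11487 CPM in uninjured stellate replicate 1 and 64.3 CPM in replicate 2, and to 1708 to 3532 CPM in Gli1+ libraries. Mesothelial markers reached 2947 to 10200 CPM in Gli1+ and 4.22 to 9.59 CPM in stellate libraries, and neutrophil, lymphocyte and erythroid markers at most 42.9, 190 and 4.01 CPM. Mitochondrial genes took 3.5% and 5.72% of reads in Gli1+ BDL and 1.72% and 2.73% in stellate BDL, against 3.51% and 2.21% in the Gli1+ and 1.40% and 0.808% in the stellate libraries of uninjured liver. The part of these cell types and of the mitochondrial share in the member levels was not tested.

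**Figure D2:**
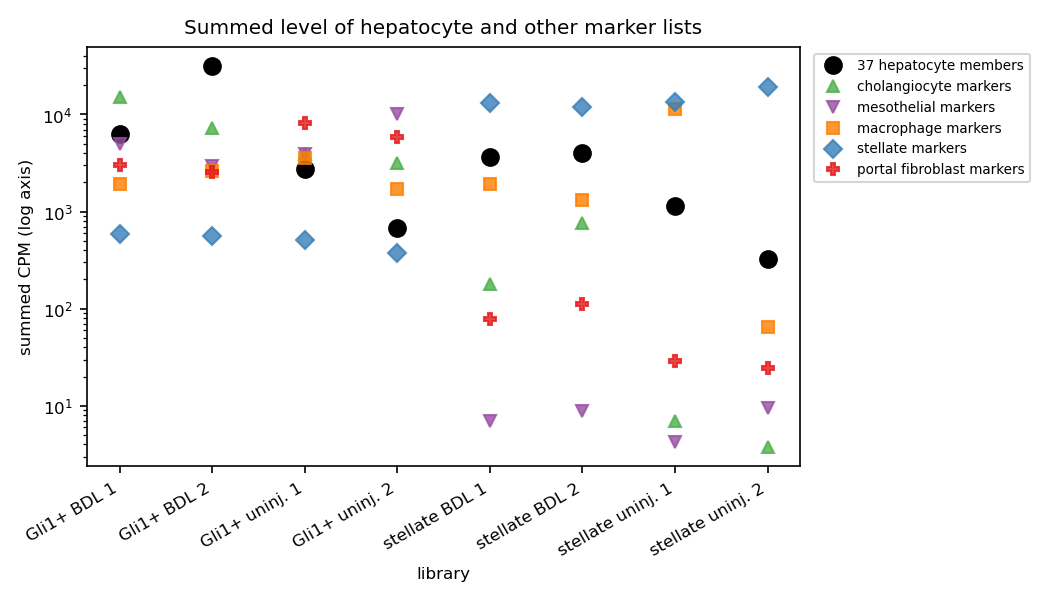
Summed CPM (log axis) of the 37 hepatocyte genes and of the markers of 5 other cell types in each library. The hepatocyte sum, drawn as black dots, lies between 3614 and 31537 CPM in the BDL libraries and between 322 and 2722 CPM in the uninjured ones.

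The BDL response was tested with limma on log2(CPM + 1), with Benjamini-Hochberg (BH) adjustment across the 16446 genes that passed a filter on low values, all 37 members among them, at a threshold of 0.05. Averaged over both populations, 14 of 37 members were called higher after BDL and none lower, where 0.784% of all genes were called higher and 0.164% lower. The median log2 fold change of the members was 3.76, with 36 of 37 above 0, and that of all genes was 0.19. In 23 members every BDL library lay above every uninjured library, against 4.15% of all genes, and in none did they all lie below, against 1.34%. The calls rest on few libraries. Leaving out 1 library leaves 1 in its group, and without some single libraries all the calls were lost, where almost no gene of any kind was called higher. The members' median fold change was 4.17 and 3.18 without Gli1+ BDL replicates 1 and 2, and 4.27 and 3.20 without Gli1+ uninjured replicates 1 and 2. It was 3.92 and 3.67 without stellate BDL replicates 1 and 2, and 4.22 and 3.18 without stellate uninjured replicates 1 and 2. In these fits 34 to 37 of 37 members were above 0. With limma-voom on the whole reads the count of called members was 0. There 36 members had a fold change above 0, and no gene of any kind was called higher.

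Within a single population the spread between 2 libraries was wide. In Gli1+ cells all 37 members had a fold change above 0 after BDL, with a median of 4.24 on the log2 scale against 0.12 for all genes. None passed the adjusted threshold of limma, where 0% of all genes were called, although 30 members had an unadjusted p below 0.05, against 11% of all genes. DESeq2 on the whole reads called 23 members and 1.64% of all genes higher, and edgeR and limma-voom called 0 genes of any kind. In 31 members both Gli1+ BDL libraries lay above both uninjured ones, against 25.1% of all genes, none had them below, against 16.2%, and the 6 that overlapped were Ttr, Ambp, Apoc1, Fabp1, Cyp2e1 and Abcb11. In stellate cells 36 members had a fold change above 0, with a median of 3.23 against 0.19 for all genes, and 26 were higher without overlap, against 27.4% of all genes, and none lower, against 12.2%. With 2 genes that had no read in uninjured stellate libraries set at their lower bound, this median was 3.30, and with 1 such gene the median of Gli1+ cells was 4.31. Of these members, Ambp alone was called higher in stellate cells by limma, where 0.225% of all genes were called higher.

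**Figure D3:**
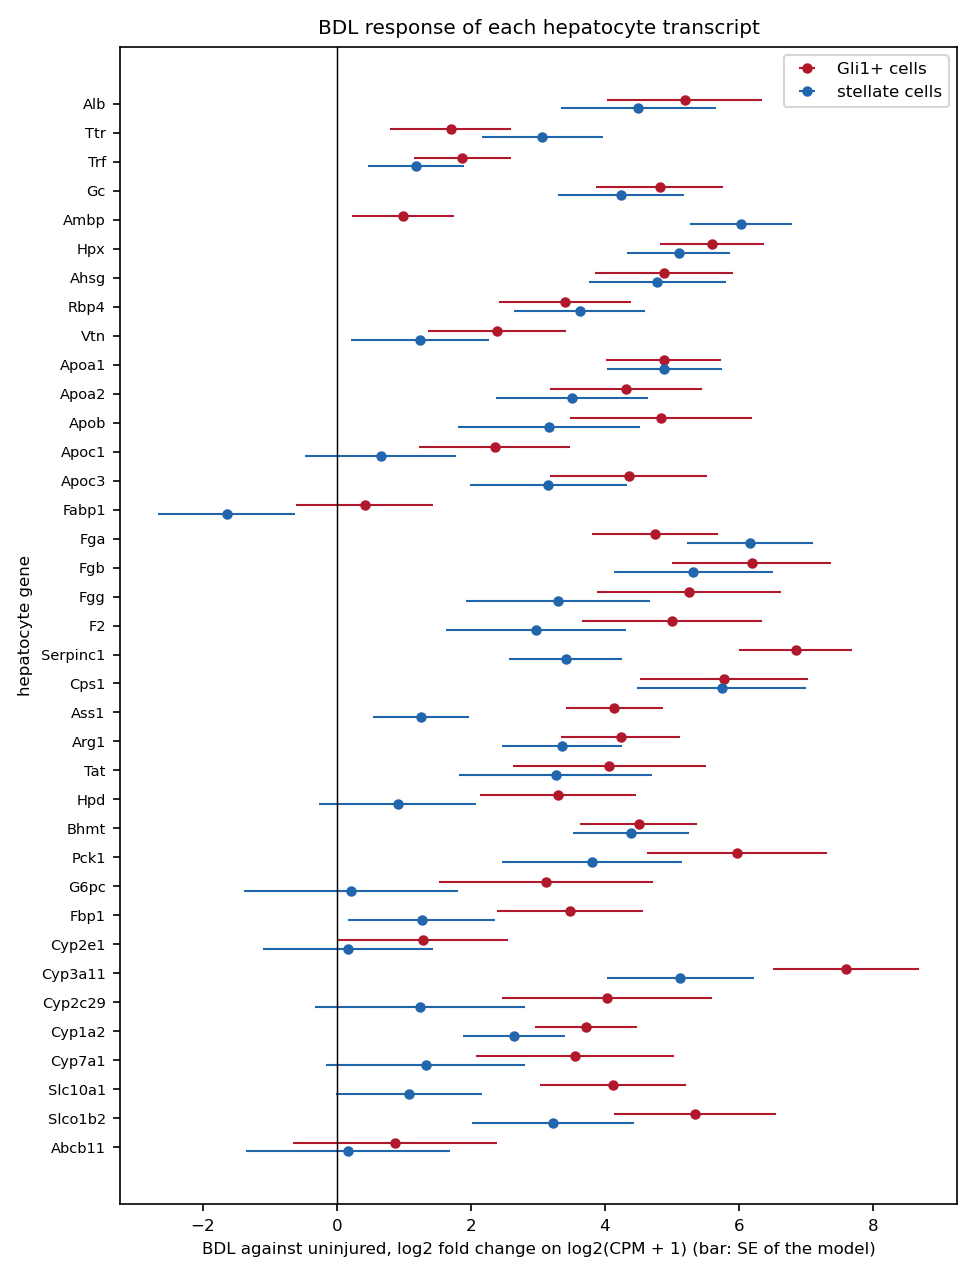
Fold change after BDL against uninjured (log2, on log2(CPM + 1), bars are the SE of the model) for each of the 37 hepatocyte genes in Gli1+ and in stellate cells, with 2 libraries per group. Nearly all points lie right of 0; Fabp1 in stellate cells lies left of it, and Ambp, Fabp1, Cyp2e1 and Abcb11 have small values in 1 or both populations.

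Among the plasma carriers, 5 of 9 were called higher after BDL in the average of both populations, against 0.784% of all genes. Albumin (Alb), the main protein of plasma, had 990.2 and 5648 CPM in Gli1+ BDL and 651 and 450.3 CPM in stellate BDL libraries, against 168 and 23.9 CPM in uninjured Gli1+ and 62.0 and 8.13 CPM in uninjured stellate libraries. All 4 BDL libraries were above all 4 uninjured ones, and the log2 fold change averaged over both populations was 4.84 ± 0.82 (SE; limma adjusted p = 0.0400). Ahsg, fetuin-A, which keeps calcium phosphate in solution, had 349 and 1633 CPM in Gli1+ BDL and 220.3 and 304 CPM in stellate BDL libraries, against 50.2 and 11.9 CPM in uninjured Gli1+ and 23.3 and 2.66 CPM in uninjured stellate libraries. It did not overlap either, with an average fold change of 4.83 ± 0.73 (limma adjusted p = 0.0328); an antisense gene overlaps it, and the strand setting of the counts is not given. Hpx, hemopexin, which binds free heme, had 358 and 1654 CPM in Gli1+ BDL and 222 and 451 CPM in stellate BDL libraries, against 23.6 and 9.24 CPM in uninjured Gli1+ and 12.5 and 5.32 CPM in uninjured stellate libraries. Its groups did not overlap, and its adjusted p of 0.0137 by limma was the smallest of the 37 (log2 fold change 5.35 ± 0.55). Gc, the vitamin D binding protein, had 460.0 and 899.5 CPM in Gli1+ BDL and 133 and 261 CPM in stellate BDL libraries, against 72.3 and 6.11 CPM in uninjured Gli1+ and 6.85 and 11.5 CPM in uninjured stellate libraries. It too showed no overlap (4.53 ± 0.67, limma adjusted p = 0.0316).

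Ttr and Ambp took another course. Transthyretin (Ttr), which carries thyroxine and the retinol binding protein, had 420.5 and 1421 CPM in Gli1+ BDL libraries, against 669 and 84.1 CPM in uninjured Gli1+ libraries, so the groups overlapped. In stellate cells it had 82.7 and 121 CPM after BDL, against 14.7 and 8.24 CPM in uninjured libraries, with no overlap. Its BDL response was 1.70 ± 0.91 in Gli1+ and 3.07 ± 0.91 in stellate cells, neither past the threshold (limma adjusted p = 0.576 and 0.230). Ambp, the precursor of alpha-1-microglobulin and bikunin, had 391 and 469.8 CPM in Gli1+ BDL and 573 and 80.8 CPM in uninjured Gli1+ libraries. In stellate cells it had 79.1 and 75.7 CPM after BDL, against 0.245 and 0.156 CPM in uninjured libraries, which is 4 and 3 reads. It was called higher after BDL in stellate cells, with a fold change of 6.03 ± 0.76 (limma adjusted p = 0.0252), and in Gli1+ cells the fold change was 0.99 ± 0.76 (adjusted p = 0.746). The stellate call was lost when any 1 of the 4 BDL libraries was left out (adjusted p 0.125 to 0.350), with no filter on low values (0.0998) and with limma-voom (0.341). Averaged over both populations it was called too (3.51 ± 0.54, limma adjusted p = 0.0335), although its BDL and uninjured libraries overlapped. The responses of Ambp differed by -5.04 ± 1.08, Gli1+ minus stellate, which did not pass (limma adjusted p = 0.341; 0.0122% of all genes were called lower). The other 3 carriers, transferrin (Trf), retinol binding protein (Rbp4) and vitronectin (Vtn), had average fold changes of 1.53, 3.51 and 1.82, none past the threshold. Trf ranged over 72.0 to 711 CPM in the 4 BDL libraries and 27.01 to 133 CPM in the 4 uninjured libraries. Rbp4 ranged over 125 to 1151 CPM after BDL and 2.87 to 47.5 CPM in uninjured libraries, with no overlap, and Vtn over 47.0 to 421 CPM after BDL and 11.99 to 68.2 CPM in uninjured libraries.

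Of the 6 apolipoproteins and fatty acid binding genes, Apoa1 alone was called in the average, against 0.784% of all genes called higher. Apoa1, the main protein of high-density lipoprotein, had 469 and 2428 CPM in Gli1+ BDL and 354 and 387 CPM in stellate BDL libraries, against 80.7 and 15.2 CPM in uninjured Gli1+ and 9.91 and 13.4 CPM in uninjured stellate libraries. The groups did not overlap (log2 fold change 4.88 ± 0.61, limma adjusted p = 0.0225). Apoa2, its partner in high-density lipoprotein, had 401 and 3231 CPM in Gli1+ BDL and 199.7 and 282 CPM in stellate BDL libraries, against 118 and 26.8 CPM in uninjured Gli1+ and 51.9 and 7.30 CPM in uninjured stellate libraries. It did not overlap either, but its limma adjusted p was 0.0660. Apoc3, an inhibitor of triglyceride clearance, and Apob, the scaffold of very-low-density lipoprotein, showed the same separation with average fold changes of 3.76 and 4.0 and limma adjusted p of 0.0806 and 0.0988. Apoc3 ranged over 38.8 to 678 CPM after BDL and 3.13 to 35.0 CPM in uninjured libraries, and Apob over 27.7 to 316 CPM after BDL and 0.0521 to 10.8 CPM in uninjured libraries.

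Apoc1 and Fabp1 stood apart from their list. Apoc1, a small apolipoprotein that macrophages also make, had 272 and 1619 CPM in Gli1+ BDL and 292 and 315 CPM in stellate BDL libraries, against 279.5 and 59.1 CPM in uninjured Gli1+ and 548 and 67.1 CPM in uninjured stellate libraries. Its highest uninjured value was in stellate replicate 1, the library with 11487 CPM of macrophage markers. Replicate 2 had 64.3 CPM of these markers and 67.1 CPM of Apoc1. Alb stood at 62.0 and 8.13 CPM in replicates 1 and 2, and Apoc1 at 884 and 825 reads per 100 Alb reads. Uninjured Gli1+ replicate 1, with 3532 CPM of macrophage markers, had 279.5 CPM of Apoc1, or 167 reads per 100 Alb reads. The part of macrophages in the Apoc1 level was not tested. Per kilobase of exon, Apoc1 led the members in both uninjured stellate libraries, at 736 and 90.2 CPM per kilobase. Apoa2 led them in 3 of the 4 BDL libraries and Apoc1 in stellate BDL replicate 1, at 393 CPM per kilobase. Fabp1, the fatty acid binding protein of hepatocytes and gut epithelium, had 81.2 and 162 CPM in Gli1+ BDL and 17.2 and 4.42 CPM in stellate BDL libraries, against 167 and 43.9 CPM in uninjured Gli1+ and 81.3 and 10.7 CPM in uninjured stellate libraries. Its groups overlapped in both populations, and with an average fold change of -0.61 ± 0.72 it was the single member below 0 (limma adjusted p = 0.739).

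The 5 coagulation genes were higher after BDL without overlap in both populations, against 25.1% of all genes in Gli1+ and 27.4% in stellate cells. In the average of both populations 3 were called, against 0.784% of all genes called higher. Fibrinogen is built from the products of Fga, Fgb and Fgg. Fgb had 113 and 1145 CPM in Gli1+ BDL and 106 and 94.97 CPM in stellate BDL libraries, against 8.88 and 1.48 CPM in uninjured Gli1+ and 4.83 and 0.104 CPM in uninjured stellate libraries (5.76 ± 0.84, limma adjusted p = 0.0308). Fga had 74.6 and 586 CPM in Gli1+ BDL and 61.5 and 95.7 CPM in stellate BDL libraries, against 11.2 and 4.05 CPM in uninjured Gli1+ and 0.0612 and 0.104 CPM in uninjured stellate libraries. It was called with an average of 5.46 ± 0.66 (limma adjusted p = 0.0214). Uninjured stellate cells held 3 Fga reads in all, and the ratio over the group was 894 in stellate BDL to uninjured libraries (exact 95% interval 305 to 4337, counting error only). Fgg had 97.4 and 697 CPM in Gli1+ BDL and 72.7 and 60.4 CPM in stellate BDL libraries, against 32.6 and 0.399 CPM in uninjured Gli1+ and 7.46 and 4.48 CPM in uninjured stellate libraries, and did not pass (limma adjusted p = 0.0872). Serpinc1, antithrombin, had 67.9 and 419 CPM in Gli1+ BDL and 74.0 and 52.5 CPM in stellate BDL libraries, against 0.178 and 0.856 CPM in uninjured Gli1+ and 5.504 and 4.43 CPM in uninjured stellate libraries. It was called (5.13 ± 0.60, limma adjusted p = 0.0195), and Zbtb37 overlaps it on the other strand. F2, prothrombin, ranged over 20.9 to 188 CPM after BDL and 0 to 9.05 CPM in uninjured libraries, with an average fold change of 3.99 (limma adjusted p = 0.0961).

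In nitrogen and amino acid metabolism 3 of 6 genes were called higher in the average, against 0.784% of all genes. Cps1, which feeds ammonia into the urea cycle in mitochondria, had 60.9 and 658 CPM in Gli1+ BDL and 63.6 and 57.3 CPM in stellate BDL libraries, against 9.95 and 0.228 CPM in uninjured Gli1+ and 0.245 and 0.0521 CPM in uninjured stellate libraries. Its groups did not overlap (5.76 ± 0.89, limma adjusted p = 0.0335), although uninjured replicates of Gli1+ cells differed widely. Arg1, the last enzyme of the urea cycle, also made by some macrophages, had 275 and 627 CPM in Gli1+ BDL and 139 and 196 CPM in stellate BDL libraries, against 13.6 and 32.5 CPM in uninjured Gli1+ and 44.6 and 4.74 CPM in uninjured stellate libraries (3.80 ± 0.63, limma adjusted p = 0.0393). Bhmt, which turns homocysteine into methionine, had 75.4 and 277 CPM in Gli1+ BDL and 48.5 and 46.0 CPM in stellate BDL libraries, against 12.7 and 1.997 CPM in uninjured Gli1+ and 1.35 and 1.25 CPM in uninjured stellate libraries (4.45 ± 0.62, limma adjusted p = 0.0265). Ass1, which joins citrulline and aspartate and is used by many cell types, had 92.5 and 324 CPM in Gli1+ BDL and 44.3 and 46.4 CPM in stellate BDL libraries, against 17.0 and 4.39 CPM in uninjured Gli1+ and 18.9 and 17.9 CPM in uninjured stellate libraries. Its average fold change of 2.70 ± 0.51 missed the threshold (limma adjusted p = 0.0546). Tat, of tyrosine breakdown, and Hpd, the next enzyme of that route, had average fold changes of 3.67 and 2.10 and also missed it (limma adjusted p = 0.142 and 0.265). Tat ranged over 32.2 to 361 CPM after BDL and 0.0612 to 31.3 CPM in uninjured libraries, and Hpd over 15.1 to 309 CPM after BDL and 3.18 to 31.5 CPM in uninjured libraries.

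None of the 3 gluconeogenic genes was called in the average, where 0.784% of all genes were called higher. Pck1, which makes phosphoenolpyruvate, had 81.6 and 495 CPM in Gli1+ BDL and 55.5 and 43.3 CPM in stellate BDL libraries, against 6.75 and 0.342 CPM in uninjured Gli1+ and 11.7 and 0 CPM in uninjured stellate libraries. It did not overlap, with a limma adjusted p of 0.0581. Fbp1, fructose bisphosphatase, had 48.4 and 197 CPM in Gli1+ BDL and 31.5 and 20.3 CPM in stellate BDL libraries, against 19.9 and 2.74 CPM in uninjured Gli1+ and 24.7 and 3.65 CPM in uninjured stellate libraries, and overlapped in stellate cells. G6pc, which releases free glucose, had 0.645 and 60.8 CPM in Gli1+ BDL and 4.26 and 0.510 CPM in stellate BDL libraries, against 0.266 and 0.0571 CPM in uninjured Gli1+ and 0 and 4.95 CPM in uninjured stellate libraries. Of these 8 libraries, Gli1+ BDL replicate 2 alone was above 5 CPM.

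Cyp3a11 and Cyp1a2 were called higher in the average among the 5 cytochromes P450, against 0.784% of all genes. Cyp3a11, a drug and bile acid hydroxylase, had 232 and 1619 CPM in Gli1+ BDL and 151 and 52.7 CPM in stellate BDL libraries, against 0.888 and 4.34 CPM in uninjured Gli1+ and 4.53 and 0.209 CPM in uninjured stellate libraries. Its average fold change of 6.36 ± 0.77 was the highest of the 37 (limma adjusted p = 0.0214), with reads of near copies in its family uncertain. Cyp1a2, which oxidises aromatic amines, had 6.45 and 23.5 CPM in Gli1+ BDL and 4.67 and 5.95 CPM in stellate BDL libraries, against 0 and 0.0571 CPM in uninjured Gli1+ and 0 and 0 CPM in uninjured stellate libraries. With 1 read in all 4 uninjured libraries, its ratio over the groups was 691 (exact 95% interval 124 to 27326; limma adjusted p = 0.0400). Cyp7a1, the rate-limiting enzyme of bile acid synthesis, had 1.13 and 73.4 CPM in Gli1+ BDL and 4.79 and 0.0849 CPM in stellate BDL libraries, against 0.0888 and 0.0571 CPM in uninjured Gli1+ and 0 and 0 CPM in uninjured stellate libraries. It was at least 34.0-fold higher in stellate BDL than in uninjured stellate libraries (3 reads over the group as floor), almost all from replicate 1, and missed the threshold (limma adjusted p = 0.304). Cyp2e1, which oxidises ethanol, had 49.97 and 598 CPM in Gli1+ BDL and 41.1 and 4.84 CPM in stellate BDL libraries, against 99.8 and 49.9 CPM in uninjured Gli1+ and 25.4 and 6.36 CPM in uninjured stellate libraries. Its groups overlapped in both populations (0.73 ± 0.89, limma adjusted p = 0.754). Cyp2c29, another drug hydroxylase with close paralogs, ranged over 3.57 to 169.8 CPM after BDL and 0 to 8.70 CPM in uninjured libraries, with an average of 2.64 (limma adjusted p = 0.291). These 5 are strongest near the central vein and had a median average fold change of 2.64. It was 3.25 for 6 members of the portal side (Cps1, Ass1, Arg1, Pck1, G6pc and Fbp1). In each set 2 were called, against 0.784% of all genes called higher, and the difference between the sets was not tested.

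The 3 transporters had the lowest summed CPM of the 7 lists in 7 of 8 libraries, uninjured stellate replicate 2 being the exception. None was called in the average, where 0.784% of all genes were called higher. Slc10a1 (NTCP), which takes bile acids up from blood, had 7.01 and 37.1 CPM in Gli1+ BDL and 0.584 and 7.31 CPM in stellate BDL libraries, against 0 and 0 CPM in uninjured Gli1+ and 1.96 and 0 CPM in uninjured stellate libraries. With 3 reads over the group as floor, Gli1+ BDL libraries were at least 233-fold higher than uninjured Gli1+ libraries, and its groups overlapped in stellate cells. Slco1b2, an uptake transporter of organic anions, had 9.27 and 171 CPM in Gli1+ BDL and 9.57 and 8.33 CPM in stellate BDL libraries, against 0 and 0.0571 CPM in uninjured Gli1+ and 0.0612 and 0.0521 CPM in uninjured stellate libraries, which held 3 reads in all 4 (limma adjusted p = 0.0619). Abcb11 (BSEP), the pump that exports bile acids into bile, had 1.45 and 58.4 CPM in Gli1+ BDL and 4.38 and 5.01 CPM in stellate BDL libraries, against 15.9 and 1.60 CPM in uninjured Gli1+ and 1.83 and 8.08 CPM in uninjured stellate libraries. It overlapped in both populations, with an average fold change of 0.51 ± 1.08 (limma adjusted p = 0.869).

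The members kept nearly the same order of abundance in all BDL libraries, whichever cells were sorted. Over the 37 genes, Spearman's rho was 0.874 to 0.930 (median 0.894) in the 6 pairs of BDL libraries, of which 4 pair Gli1+ with stellate cells. It was 0.510 to 0.866 (median 0.681) in the 6 pairs of uninjured libraries and 0.393 to 0.736 (median 0.525) in the 16 pairs of a BDL and an uninjured library. These are descriptions across genes, which are not independent replicates, and the pairs share libraries. The SD over the members of the log2 ratio between paired libraries, which is 0 where all members scale by 1 factor, had medians of 1.21 among BDL pairs, 2.90 among uninjured pairs and 2.67 among mixed pairs. Between the Gli1+ BDL replicates, all 37 members were higher in replicate 2, by a median of 6.13-fold, and replicate 1 minus replicate 2 ran from -6.35 (G6pc) to -0.26 (Ambp) on the log2 scale. Low read counts were more frequent in uninjured libraries: 8 members in Gli1+ and 14 in stellate cells had at most 3 reads in a library, against 0 and 1 after BDL.

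**Figure D4:**
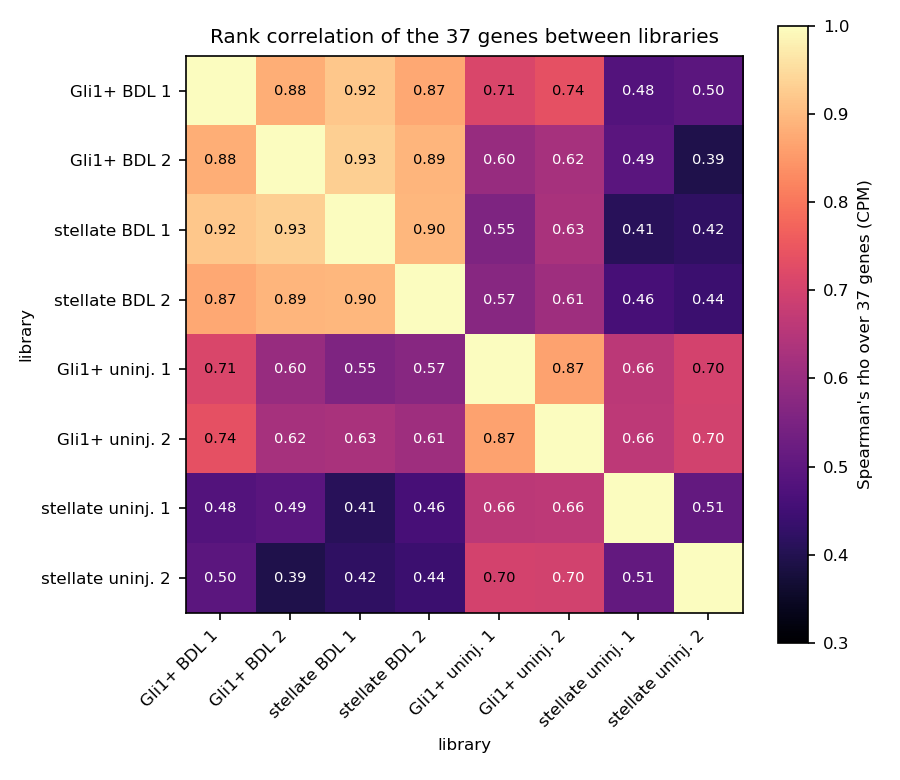
Spearman's rho between each pair of the 8 libraries over the CPM of the 37 hepatocyte genes, with the value written in each cell. The block of 4 BDL libraries at the upper left holds 0.874 to 0.930 for both cell populations, and pairs of a BDL and an uninjured library hold 0.393 to 0.736.

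Set against Alb, some members kept a nearly constant ratio and others did not. With 0.1 CPM added to both values, the log2 ratio to Alb had an SD over the 8 libraries of 0.41 for Ahsg, 0.61 for Apoa2 and 0.82 for Bhmt, the smallest, and of 3.17 for Ambp, 3.09 for Fabp1 and 3.04 for G6pc, the largest. Ahsg had 35.2 and 28.9 reads per 100 Alb reads in Gli1+ BDL and 33.8 and 67.5 in stellate BDL libraries, against 29.9 and 49.6 in the Gli1+ and 37.6 and 32.7 in the stellate libraries of uninjured liver. Bhmt had 7.61 and 4.90 in Gli1+ BDL and 7.44 and 10.2 in stellate BDL libraries, against 7.57 and 8.35 in the Gli1+ and 2.17 and 15.4 in the stellate libraries of uninjured liver. Alb itself ranged from 8.13 to 5648 CPM over these libraries. The SD of the log2 ratio had a median over the other 36 members of 0.64 in the 4 BDL libraries and 1.69 in the 4 uninjured ones, and was larger in the uninjured ones for 30 of 36.

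Relative to Alb, 8 of 36 members were lower in every BDL library than in every uninjured library: Trf, Apoa2, Apoc1, Fabp1, Hpd, Fbp1, Cyp2e1 and Abcb11. Among all genes this was so for 57.5%, Alb itself being higher after BDL. Fabp1 had 8.21 and 2.87 reads per 100 Alb reads in Gli1+ BDL and 2.65 and 0.981 in stellate BDL libraries, against 99.6 and 184 in the Gli1+ and 131 and 131 in the stellate libraries of uninjured liver. Apoc1 had 27.5 and 28.7 in Gli1+ BDL and 44.9 and 70.02 in stellate BDL libraries, against 167 and 247 in the Gli1+ and 884 and 825 in the stellate libraries of uninjured liver. Trf, the iron carrier of plasma, had 19.2 and 12.6 in Gli1+ BDL and 11.1 and 33.6 in stellate BDL libraries, against 44.5 and 556 in the Gli1+ and 123 and 332 in the stellate libraries of uninjured liver. Fgb and Cps1 were higher per Alb read in every BDL library, against 0.0243% of all genes, and 26 members overlapped. Cps1 rested on 112 and 4 reads in uninjured Gli1+ and 4 and 1 reads in uninjured stellate libraries. Fgb had 100 and 26 reads in the former and 79 and 2 in the latter. In the library with 112 reads Cps1 stood at 5.93 per 100 Alb reads, near its lowest BDL value of 6.15. The median difference of the 36 members was -0.39 on the log2 scale, against -4.61 for all genes, with 15 members within 1 of 0, 10 below -2 and 3 above 2.

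The ratio to Alb was tested for 6 genes, of which Cyp2e1 and Cyp7a1 are both cytochromes P450 and none is of gluconeogenesis. An exact two-sided permutation test set the 4 BDL against the 4 uninjured libraries, with BH adjustment over the 6. Its smallest possible p is 0.0286. The splits mixed Gli1+ and stellate libraries freely, so the p-values do not account for population, and splits kept within a population were not run. Fgb had 11.4 and 20.3 reads per 100 Alb reads in Gli1+ BDL and 16.3 and 21.1 in stellate BDL libraries, against 5.29 and 6.21 in the Gli1+ and 7.80 and 1.28 in the stellate libraries of uninjured liver, a difference of 1.71 (exact p = 0.0286, adjusted 0.0571). Cps1 had 6.15 and 11.6 in Gli1+ BDL and 9.77 and 12.7 in stellate BDL libraries, against 5.93 and 0.955 in the Gli1+ and 0.395 and 0.641 in the stellate libraries of uninjured liver, a difference of 2.51 with the same p. Cyp2e1 had 5.05 and 10.6 in Gli1+ BDL and 6.31 and 1.08 in stellate BDL libraries, against 59.5 and 209 in the Gli1+ and 41.1 and 78.2 in the stellate libraries of uninjured liver, a difference of -4.18 with the same p. These 3 reached the smallest p the design allows. With 3 of 6 genes at that p, the adjusted value is 0.0571 whatever the size of the differences, so none could pass. With the summed CPM of the other members in place of Alb, they were 3.63, 4.42 and -2.34 (exact permutation test, adjusted p = 0.0429). They passed there only because Apoa1 also reached the smallest p, so the changed call is no sign of a larger difference. With 1 CPM added to both values in place of 0.1, Fgb and Cps1 were 0.91 and 0.92. Within Gli1+ cells the differences were 1.36 for Fgb, 1.57 for Cps1 and -3.93 for Cyp2e1, and within stellate cells 2.06, 3.46 and -4.43. Apoa1 had 47.3 and 43.0 in Gli1+ BDL and 54.4 and 85.9 in stellate BDL libraries, against 48.1 and 63.5 in the Gli1+ and 15.99 and 165 in the stellate libraries of uninjured liver, a difference of 0.06 (exact permutation p = 0.971). This value too depended on Alb as denominator: with the other members' sum it was 2.04 and passed (exact permutation test, adjusted p = 0.0429). Alb itself took 15.8% and 17.9% of the members' summed CPM in Gli1+ BDL and 18.0% and 11.1% in stellate BDL libraries, against 6.16% and 3.52% in the Gli1+ and 5.44% and 2.53% in the stellate libraries of uninjured liver. The sum was uneven too: Apoc1 took 48.1% and 20.8% of it in uninjured stellate libraries, against 8.09% and 7.77% in stellate BDL libraries. In uninjured Gli1+ libraries Ttr took 24.6% and 12.4%, against 6.69% and 4.50% in Gli1+ BDL libraries. Ambp took 21.0% and 11.9% there, against 6.23% and 1.49%. The part of these genes in the ratios to the other members' sum was not tested. Cyp7a1 and Slc10a1 differed by -0.38 and -0.07 (exact permutation p = 0.800 and 0.943), with SDs of 2.31 and 1.67 over the 4 BDL libraries, and with the other members' sum as denominator they turned to 1.5 and 1.81.

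**Figure D5:**
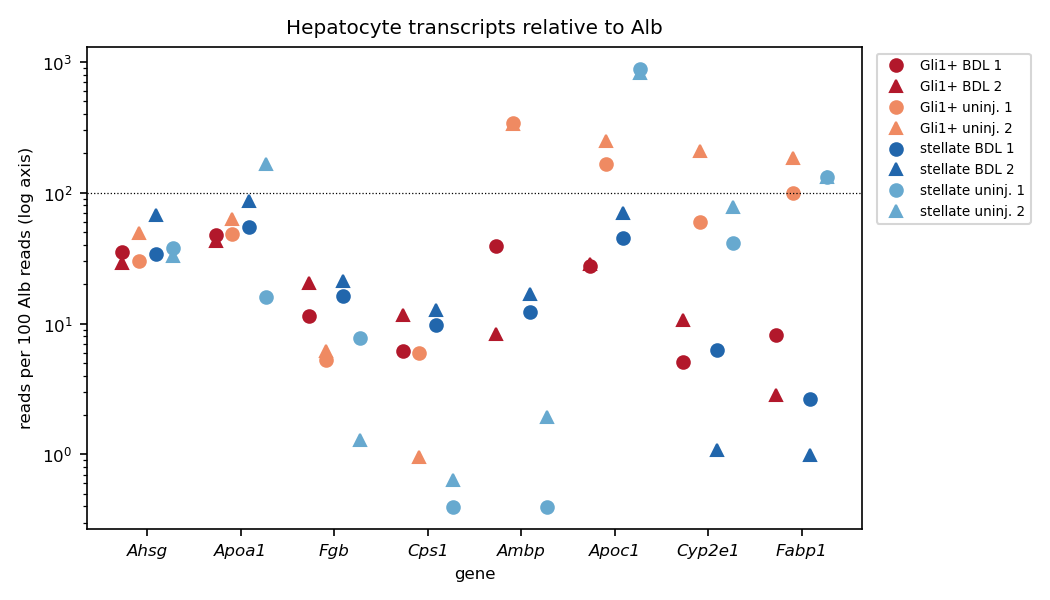
Reads per 100 Alb reads (log axis) of 8 hepatocyte genes in each library, with BDL libraries in dark and uninjured libraries in light colours, Gli1+ cells in red and stellate cells in blue. Ahsg stays between 28.9 and 67.5 in all 8 libraries, Fgb and Cps1 are higher in each BDL library than in each uninjured one, and Apoc1, Cyp2e1 and Fabp1 are lower; Ambp stands at 342 and 338 in uninjured Gli1+ libraries and at most 39.5 in the others.

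In uninjured liver, 2 members were called between the populations, both higher in Gli1+ cells. Ambp, with 573 and 80.8 CPM in uninjured Gli1+ and 0.245 and 0.156 CPM in uninjured stellate libraries, was called higher in Gli1+ cells (log2 fold change 7.50 ± 0.76, limma adjusted p = 0.000809). Ttr, with 669 and 84.1 CPM in uninjured Gli1+ and 14.7 and 8.24 CPM in uninjured stellate libraries, was called as well (4.31 ± 0.91, limma adjusted p = 0.0187). These 2 of 37 stand against 8.06% of all genes called higher, and no member was called lower, against 3.02%. Ttr lost its call without Gli1+ uninjured replicate 1 (adjusted p 0.0889) or stellate uninjured replicate 2 (0.0599), and both lost it with limma-voom (0.195 for Ttr, 0.0992 for Ambp). In 8 members both uninjured Gli1+ libraries lay above both stellate ones, against 31.1% of all genes, and in Serpinc1 and Ass1 below them, against 14.6%. The median fold change of the members was 0.45, with 27 of 37 above 0, and that of all genes was 0.32. It was 0.00057 and 1.75 without Gli1+ uninjured replicates 1 and 2, and 1.51 and 0.08 without stellate uninjured replicates 1 and 2, with 19 to 29 members above 0. Cholangiocyte markers were 3898 and 3152 CPM in these Gli1+ libraries, against 6.91 and 3.75 CPM in the stellate ones, and their part in Ambp and Ttr was not tested.

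After BDL, all 37 members had a higher mean in Gli1+ than in stellate cells, with a median log2 fold change of 1.88 against 0.23 for all genes, which was 0.64 without Gli1+ BDL replicate 2 and 3.31 without replicate 1. None was called by limma, where 4.44% of all genes were called higher and 2.36% lower, and 8 had an unadjusted p below 0.05, near the 19.6% of all genes. DESeq2 called 6 members and 6.12% of all genes higher, and edgeR and limma-voom called no member. In 23 members both Gli1+ BDL libraries lay above both stellate BDL libraries, against 34.8% of all genes, and none had them below, against 19.0%. The 2 Gli1+ BDL libraries were unequal in this: the median ratio to stellate BDL replicate 1 was 9.34 for Gli1+ BDL replicate 2 and 1.52 for replicate 1. For no member was a difference between the BDL responses of the populations called by limma, with 3 at an unadjusted p below 0.05, near the 7.48% of all genes. Their median difference, Gli1+ minus stellate, was 1.12 against -0.12 for all genes, and it moved with single libraries: it was 0.02, with 19 of 37 above 0, without Gli1+ BDL replicate 2 and 2.55 without replicate 1, 2.07 and 0.62 without Gli1+ uninjured replicates 1 and 2, and 0.33 and 2.08 without stellate uninjured replicates 1 and 2. DESeq2 called 1 member with a stronger and 1 with a weaker response in Gli1+ cells, against 0.444% and 1.92% of all genes, and edgeR and limma-voom called no member.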

How the data were processed

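Levels were read from the CPM columns that the authors deposited, titled normalized counts in the file headers. Per the submitters' processing notes, FastQC, STAR 2.5.2b, featureCounts and DESeq2 were used with the build mm10, with no role stated; the gene annotation, strand and multi-gene read settings of the counting are not given. Each column summed to 1000000, and 100.0% of values were whole multiples of 1 read within 0.1 read. Identifiers were matched to GENCODE vM21 on GRCm38 (30214 of 30395); Ahsg, Trf, Fgg, Serpinc1, Hpd, Bhmt, Cyp2c29 and Abcb11 overlap other annotated genes.

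Members and lists were chosen with earlier results of these data known. limma 3.58.1 (R 4.3.3) was fitted to log2(CPM + 1) with 4 group means over 8 libraries (4 residual degrees of freedom), on the 16446 genes reaching 1 CPM in 2 or more libraries. Fold changes are on this scale, which understates those of low genes, with the SE of the model. TMM scaling moved the median fold change of all genes to 0.14 and 0.09 in the population comparisons (uninjured, then BDL), from 0.32 and 0.23, and by less than 0.1 elsewhere; members are read against these. On simulated data the fit found 71%, 74% and 96% of genes changed 16-fold in the Gli1+, stellate and average BDL contrasts, against 8%, 12% and 50% of those changed 4-fold. Of all calls in these simulated contrasts, 9 of 88, 13 of 99 and 21 of 167 were false, in the same order. Each share is above the adjusted threshold, so the adjusted p-values of the member calls may understate the share of false calls. Values per library were given for called members, the 2 most abundant per role list, the 6 genes of the ratio test and the 3 with the largest and the smallest SD of the ratio to Alb; Trf, Apoc1 and Ass1 were added after their values were seen. Alternatives were edgeR 4.0.16, DESeq2 1.42.0 and limma-voom on the whole reads, other pseudocounts and scalings, no filter, a replicate block, and leaving out each library. Intervals and floors of 3 reads cover counting error only.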

Additional observations from a re-analysis of the deposited data

Results flagged for a closer look

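Ass1, which joins citrulline and aspartate, lay in opposite order between the populations in the 2 conditions, with neither difference called. After BDL it had 92.5 and 324 CPM in Gli1+ libraries and 44.3 and 46.4 CPM in stellate libraries. Both Gli1+ libraries were higher, as in 34.8% of all genes (log2 fold change 1.91 ± 0.72, limma adjusted p = 0.178). In uninjured liver it had 17.0 and 4.39 CPM in Gli1+ libraries and 18.9 and 17.9 CPM in stellate libraries. Both Gli1+ libraries were lower, 1 of them narrowly, as in 14.6% of all genes (-0.98 ± 0.72, limma adjusted p = 0.461). The BDL response of Gli1+ minus that of stellate cells was 2.89 ± 1.02 on the log2 scale (SE of the model), which did not pass (limma adjusted p = 0.544).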

How the results depend on the processing

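Counts of members called by limma (2 and 0 higher between populations in uninjured liver and after BDL, 0 and 1 higher in the Gli1+ and stellate BDL responses, 14 in their average) moved with the processing, and the causes were not tested. In uninjured liver they were 1 with no filter (1.83% of all genes called higher) and 1 with only the 4 libraries compared (319 of 13832 genes). They were 3 with a pseudocount of 0.5 CPM (8.51%), with 0.1 CPM (8.98%) and with edgeR (5%). DESeq2 called 4 higher and 1 lower, against 12.4% and 5.79% of all genes, and limma-voom called 0, against 6.1% higher. After BDL they were 6 with DESeq2 (6.12% of all genes called higher), 1 with the replicate block (3.73%) and 4 with only the 4 libraries compared (1270 of 15199 genes). The Gli1+ response had 1 with no filter (0.339% of all genes) and 23 with DESeq2 (1.64%). The stellate response had 2 with a pseudocount of 0.5 CPM (0.243% of all genes), 3 with 0.1 CPM (0.59%), 2 with edgeR (0.377%) and 18 with DESeq2 (5.16%). It had 0 with no filter (0.0197%), and 0 with limma-voom or with only 4 libraries, where no gene of any kind was called. DESeq2 called 1 higher and 1 lower in the difference of responses, against 0.444% and 1.92% of all genes. The average had 0 with no filter or limma-voom, where no gene of any kind was called higher. It had 8 with edgeR (0.784% of all genes), 24 with DESeq2 (4.94%) and 5 with the replicate block (0.213%). Leaving out 1 library gave 1 to 3 and 0 to 2 in the population comparisons, 0 to 7 in the stellate response and 0 to 19 in the average. Whether libraries of equal replicate number came from the same mice is not stated. Their deviations correlated at -0.11 to 0.11 across genes, which rests on 1 difference per group and cannot settle it. The fall from 14 to 5 calls in the average with the block therefore remains a limit. With the other members in place of Alb as denominator, BDL minus uninjured was 2.04 for Apoa1, 3.63 for Fgb, 4.42 for Cps1 and -2.34 for Cyp2e1, each now past the threshold (exact permutation test, adjusted p = 0.0429), and Cyp7a1 and Slc10a1 turned to 1.5 and 1.81. Fgb, Cps1 and Cyp2e1 passed here only because Apoa1 joined them at the smallest possible p. In uninjured libraries this denominator held large shares of Apoc1 (stellate cells) and of Ttr and Ambp (Gli1+ cells). Leaving out 1 library, where the smallest two-sided p (the smaller tail doubled, 35 splits) is 0.0571, gave -0.52 to 0.60 for Apoa1, 1.36 to 1.92 for Fgb, 1.97 to 3.12 for Cps1, -4.60 to -3.51 for Cyp2e1, -1.15 to 0.51 for Cyp7a1 and -1.15 to 0.78 for Slc10a1. Depth limits the genes under about 1 CPM in uninjured libraries.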

Other observations

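Of 48 other genes of hepatocytes, listed apart from the 37, 15 were called higher and none lower in the average of both populations (limma, median log2 fold change 2.92). Among all genes 0.784% were called higher and 0.164% lower. The 3 with the largest called fold changes were Apoh, beta-2-glycoprotein I, at 5.06 ± 0.91 (limma adjusted p = 0.0479), Tdo2, of tryptophan breakdown, at 5.02 ± 0.77 (0.0335), and Hrg, histidine-rich glycoprotein, at 5.00 ± 0.82 (0.0381). Tdo2 had 127 and 407 CPM in Gli1+ BDL and 34.5 and 51.5 CPM in stellate BDL libraries, against 0.533 and 5.08 CPM in uninjured Gli1+ and 0.122 and 7.40 CPM in uninjured stellate libraries. Itih3, an inter-alpha-trypsin inhibitor chain, was called lower in uninjured Gli1+ cells than in stellate cells, with 3.46 and 4.96 CPM in the Gli1+ libraries, against 109.8 and 156 CPM in the stellate libraries (-4.67 ± 0.68, limma adjusted p = 0.00372). Slc2a2, the glucose transporter of hepatocytes, was called higher in Gli1+ cells in both conditions. It had 23.5 and 59.5 CPM in Gli1+ BDL against 1.81 and 1.70 CPM in stellate BDL libraries, and 115 and 36.5 CPM in uninjured Gli1+ against 0 and 0.209 CPM in uninjured stellate libraries. Cyp2f2, a cytochrome P450 of portal-side hepatocytes and airway cells, was called higher in uninjured Gli1+ cells, with 58.4 and 13.9 CPM in the Gli1+ libraries, against 0.0612 and 0 CPM in the stellate libraries (limma adjusted p = 0.0121).

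Of 10 acute phase genes, which hepatocytes turn up in inflammation, 7 were called higher after BDL in the average and none lower (limma, median 4.55), against 0.784% and 0.164% of all genes. Hp, haptoglobin, had 426 and 1577 CPM in Gli1+ BDL and 289 and 381 CPM in stellate BDL libraries, against 16.5 and 76.5 CPM in uninjured Gli1+ and 1.10 and 0.469 CPM in uninjured stellate libraries. It was called in stellate cells alone as well (7.57 ± 0.78, limma adjusted p = 0.0111). Hamp, the iron hormone hepcidin, at 5.72 ± 0.77, and Orm1, orosomucoid, at 5.14 ± 0.60, came next among the called genes of this list. Lcn2, lipocalin 2, was called higher in Gli1+ than in stellate cells in both conditions. It had 1119 and 581 CPM in Gli1+ BDL against 8.29 and 44.3 CPM in stellate BDL libraries, and 194 and 55.8 CPM in uninjured Gli1+ against 0.0612 and 0.156 CPM in uninjured stellate libraries.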
